A study of Mus musculus with 6 samples.

Results

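The BCL2 family genes of cell death and survival were followed in bulk RNA of newborn mouse interscapular brown fat, a tissue that wastes in the study's setting according to its title. The 10 genes were chosen by symbol: 3 pro-survival genes (Bcl2, Bcl2l1 and Mcl1), 2 effector genes (Bax and Bak1) and 5 BH3-only genes (Bad, Bid, Bcl2l11, Bbc3 and Bmf). All 10 were among the 19241 genes of the deposited table, and all 10 were among the 13331 genes tested, each averaging 0.5 FPKM or more. FPKM scales fragment counts by transcript length and library size, so levels of different genes can be compared in it. The WT group held 3 libraries from newborn mice with the genotype Fstl1-floxed, and the KO group held 3 libraries from newborn mice with the genotype Myf5-Fstl1 KO, a name for loss of Fstl1 driven through Myf5. Replicates are given below in the order 1, 2, 3, and gene positions are from RefSeq on GRCm38. Overlaps of exons between genes are from GENCODE M21. The labels do not say whether the WT mice carried the driver of the deletion or whether each library came from a separate animal, so p-values measure the spread between these libraries. Fstl1, the targeted gene, stood at 9.93 ± 2.76 FPKM in KO and 80.0 ± 43.4 FPKM in WT (SD, n = 3 each), so KO kept 12.4% of the WT mean. Myf5 marks precursors of skeletal muscle as well as of much of this brown fat, and the depot also holds vessels, blood and immune cells whose Fstl1 such a deletion leaves in place. Transcripts of the Y chromosome (Eif2s3y, Ddx3y, Uty and Kdm5d) were present in each KO library and near 0 in each WT library, and Xist the reverse, so genotype and sex cannot be told apart in any comparison here. In bulk RNA, fewer cells of a type and less RNA per cell cannot be told apart. WT replicate 1 stood apart from the other WT libraries for several of the genes.

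BCL2 family proteins decide at the outer mitochondrial membrane whether a cell enters apoptosis. The pro-survival proteins BCL2, BCL-XL (the product of Bcl2l1) and MCL1 hold the effectors BAX and BAK in check. BH3-only proteins carry stress signals to this balance by binding the pro-survival proteins or by activating the effectors directly, and active BAX and BAK open pores that release cytochrome c. Much of this control lies in protein turnover, phosphorylation and localisation, which RNA levels do not show.

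Of the 10 genes, 1 passed the threshold in KO against WT. Bmf, a BH3-only gene, rose 2.03-fold, from 3.70 ± 0.372 FPKM in WT to 7.5 ± 1.51 FPKM in KO (SD, n = 3 each; limma, log2 fold change of FPKM + 1 of 0.84, adjusted p 0.0427). That call was lost in 12 of 18 alternatives, among them each fit that left out 1 library and all 4 other scalings. The largest difference the other way was in the effector gene Bak1, whose KO mean was 62.2% of the WT mean without passing (limma, log2 fold change −0.65, adjusted p 0.118). Over all tested genes 2.21% were called at an adjusted p of 0.05, with 1.21% higher and 1.01% lower in KO. At an unadjusted p of 0.05, 2 of the 10 genes were below it, Bmf and Bak1, against 19.2% of all tested genes (10.6% higher, 8.6% lower). The KO and WT values did not overlap in 4 of the 10, with Mcl1, Bcl2l11 and Bmf higher and Bak1 lower in KO, against 24.9% of all tested genes (13.6% higher, 11.4% lower). The median log2 fold change was −0.02 over the 10 genes and 0.01 over all tested genes. The share of members at the unadjusted threshold was near that of all genes, and with 10 genes the other counts are too small to set the family apart.

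**Figure D1:**
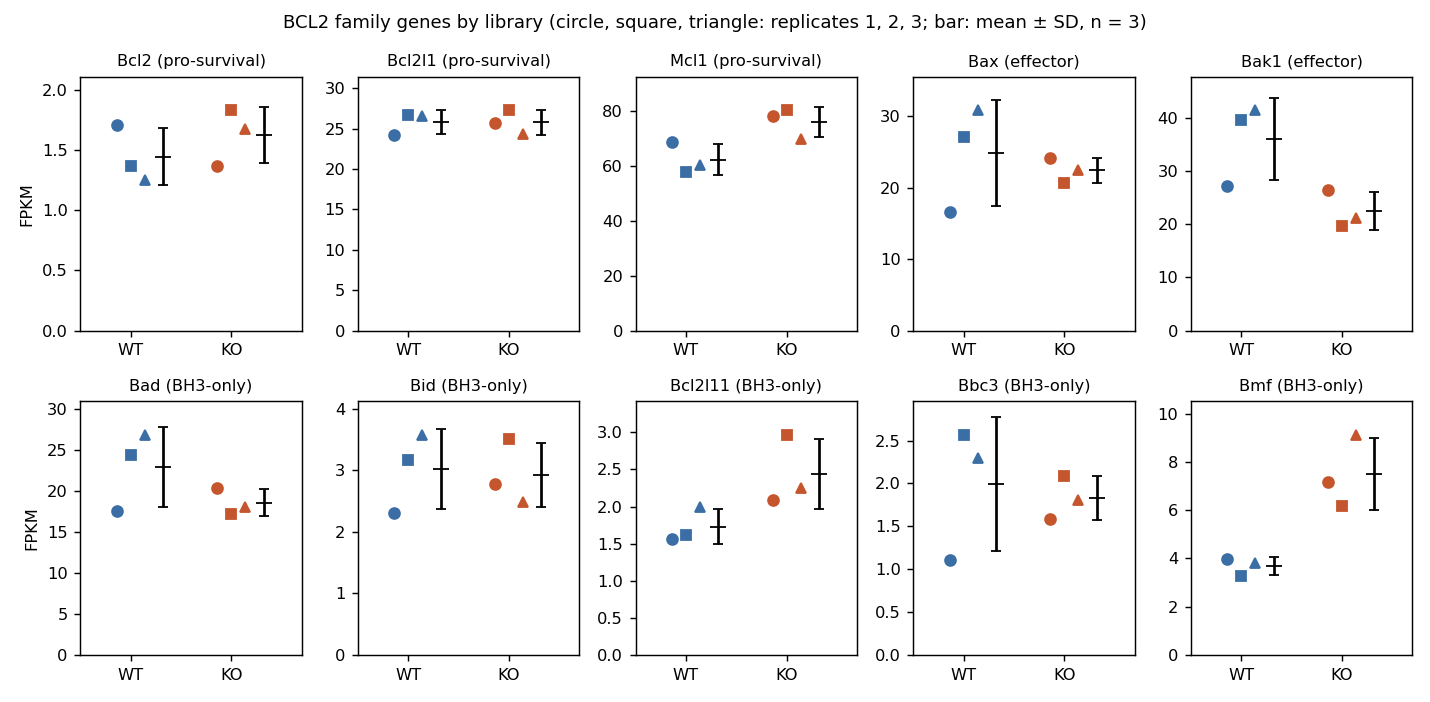
FPKM of the 10 genes (y axis, each panel from 0) in the 3 WT and 3 KO libraries, with the mean and SD of each group beside the points. Bmf stands at 3.28 to 3.99 FPKM in WT and 6.17 to 9.14 FPKM in KO, while WT replicate 1 (circle) is the lowest WT library for Bax, Bak1, Bad, Bid and Bbc3.

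**Figure D2:**
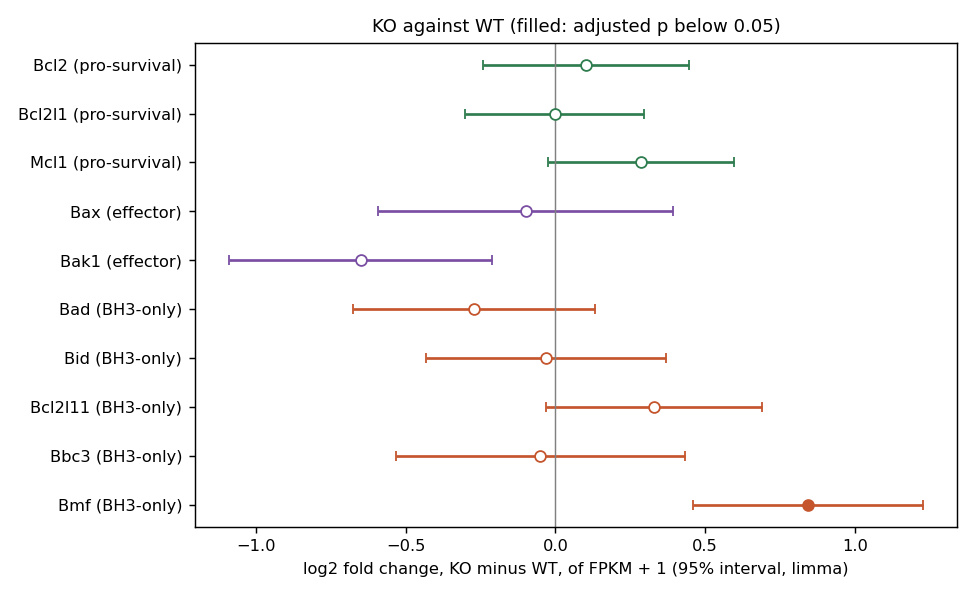
Log2 fold change of FPKM + 1, KO minus WT (x axis), with the 95% interval from limma, for each of the 10 genes (y axis, with its role). The Bmf interval runs from 0.46 to 1.23 and that of Bak1 from −1.09 to −0.21, and the other 8 intervals include 0.

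Upstream sequence is shown for Bmf, which passed the test, and for Bcl2l11, a second BH3-only gene whose KO values all lay above its WT values but which did not pass. The sequences are from RefSeq on GRCm38.p6, the same assembly as the mm10 build named in the submitters' processing notes. Each covers up to 250 bases before the first start listed for the gene in that table, trimmed so that it holds no exon of the GENCODE M21 annotation. Capitals mark matches on either strand to 5 short motifs that were chosen after the expression values were seen: the forkhead (FOXO) core GTAAACA, the cyclic AMP response element TGACGTCA, the GC box GGGCGG, the TATA box TATAAA and the CCAAT box CCAAT. They lie at chr2:118549688-118549936 (Bmf, minus strand) and chr2:128125788-128126037 (Bcl2l11, plus strand).
Bmf: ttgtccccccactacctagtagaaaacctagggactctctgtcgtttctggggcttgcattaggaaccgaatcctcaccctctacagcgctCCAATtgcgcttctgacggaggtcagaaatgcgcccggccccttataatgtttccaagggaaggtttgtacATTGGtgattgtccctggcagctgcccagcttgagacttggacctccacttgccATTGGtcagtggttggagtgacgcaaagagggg
Bcl2l11: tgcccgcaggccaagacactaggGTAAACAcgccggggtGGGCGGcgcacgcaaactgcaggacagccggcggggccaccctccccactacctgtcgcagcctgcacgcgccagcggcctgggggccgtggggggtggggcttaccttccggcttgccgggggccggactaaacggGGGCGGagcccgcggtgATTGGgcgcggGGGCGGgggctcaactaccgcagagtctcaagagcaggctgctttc
The Bmf window held 3 CCAAT boxes and no other of the 5 motifs, and 33.8% of all 32851 promoter windows of 250 bases held at least 1 CCAAT box. The windows of the other 2 Bmf starts in the table held 1 and 0 CCAAT boxes. The Bcl2l11 window held 1 forkhead core, which 3.17% of all windows held, together with 3 GC boxes and 1 CCAAT box. GC boxes were in 32.7% of all windows. The table lists a further Bcl2l11 start whose window held 0 forkhead cores, and 1 of the 3 windows of Bbc3, whose groups overlapped, held 1. These matches are a description of the letters. The window of Bak1 overlaps annotated exons, and the start listed for Mcl1 lies inside the span of that gene in RefSeq, so neither is shown.

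Levels of the 10 genes spanned a wide range, with Mcl1 the most abundant in each library. Mcl1 averaged 69.1 FPKM over the 6 libraries and exceeded 91.4% of all tested genes. Bak1 (29.3 FPKM), Bcl2l1 (25.8), Bax (23.7) and Bad (20.7) formed a middle tier. Bmf averaged 5.60 FPKM, Bid 2.97, Bcl2l11 2.08, Bbc3 1.91 and Bcl2 1.53, so that the gene which gives the family its name was the least abundant of the 10 and exceeded 15.5% of tested genes. Within WT the order was Mcl1, Bak1, Bcl2l1, Bax, Bad, Bmf, Bid, Bbc3, Bcl2l11 and Bcl2. In that order Mcl1 stood clear of Bak1, Bak1 of Bcl2l1 and Bad of Bmf, while the values of every other neighbouring pair overlapped. Within KO, Bak1 stood 4th rather than 2nd, behind Bcl2l1 and Bax, and Mcl1, Bcl2l1, Bad and Bmf each stood clear of the gene below them. Summed over the 10 genes, the level was 184 ± 17.4 FPKM in WT and 181 ± 8.30 FPKM in KO (SD, n = 3 each). The 3 pro-survival genes made up 49.1 ± 7.11% of that sum in WT and 56.9 ± 2.82% in KO, and the 2 effectors 32.8 ± 5.39% and 24.7 ± 2.29%. The 5 BH3-only genes held 18.0 ± 1.74% in WT and 18.3 ± 1.02% in KO. The shares are given without a test. WT replicate 1 (57.3% pro-survival, 26.6% effector) lay within the KO ranges of 55.3% to 60.2% and 22.2% to 26.7%, while WT replicates 2 and 3 (45.8% and 44.3% pro-survival, 35.5% and 36.3% effector) lay outside them.

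Among the pro-survival genes, Mcl1 (gene ID 17210, chr3:95656944-95663179), whose short-lived protein binds BAK and BIM, measured 68.5, 57.8 and 60.3 FPKM in the WT libraries against 78.0, 80.2 and 69.7 in the KO libraries. The groups did not overlap, though WT replicate 1 and KO replicate 3 were nearly level and the groups did overlap after scaling to a common FPKM sum. The KO mean was 1.22-fold the WT mean and did not pass the threshold (limma, log2 fold change 0.29, 95% interval −0.02 to 0.60, adjusted p 0.298). Bcl2l1 (gene ID 12048, chr2:152758732-152833803) was the steadiest of the 10, with 24.2, 26.7 and 26.6 FPKM in the WT libraries against 25.7, 27.3 and 24.3 in the KO libraries. The interval of its difference ran from −0.30 to 0.29 on the log2 scale (limma, adjusted p 0.995). The table gives 1 value per gene, so the long survival-promoting form and the short antagonistic form of Bcl2l1 are not separated. Bcl2 (gene ID 12043, chr1:106538176-106714290) measured 1.71, 1.37 and 1.25 FPKM in the WT libraries against 1.37, 1.83 and 1.67 in the KO libraries, with overlapping groups (limma, log2 fold change 0.10, interval −0.24 to 0.45, adjusted p 0.761). Leaving out 1 library moved it between 0.05 (without WT replicate 3 or KO replicate 2) and 0.18 (without WT replicate 1). Its exons overlap D630008O14Rik.

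Bak1 (gene ID 12018, chr17:27019812-27028627), which encodes the effector that sits in the outer mitochondrial membrane at rest, measured 27.3, 39.6 and 41.5 FPKM in the WT libraries against 26.5, 19.6 and 21.2 in the KO libraries. All KO libraries were below all WT libraries, with WT replicate 1 and KO replicate 1 close to each other. The difference of −0.65 on the log2 scale had a standard error of 0.19, and the exact two-sided permutation test gave 0.1, the smallest p that 3 libraries against 3 allow. Without WT replicate 1 the log2 fold change of Bak1 was −0.84 and passed the threshold (limma, adjusted p 0.0439). It also passed under array weights (limma, −0.71, adjusted p 0.00796), a setting that called 3181 genes. That setting gave WT replicate 2 a weight of 6.70 and WT replicates 1 and 3 weights of 0.368 and 0.492. The WT side of that fit therefore rested mostly on 1 library. In the other 16 of 18 alternatives Bak1 did not pass. Bak1 shares exon sequence with Ggnbp1, a gene on the opposite strand, and the sources used here do not say whether strand was used in counting. Ggnbp1, named here after its values were seen, rose in KO: it measured 7.77, 8.24 and 9.68 FPKM in the WT libraries against 15.5, 16.8 and 13.5 in the KO libraries (limma, log2 fold change 0.76, adjusted p 0.0423). It lost the threshold in 8 of 18 alternatives, and whether shared reads bear on either value was not tested.

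Bax (gene ID 12028, chr7:45461695-45466903), the effector that moves from the cytosol to mitochondria when activated, measured 16.6, 27.1 and 30.9 FPKM in the WT libraries against 24.2, 20.7 and 22.5 in the KO libraries. The 3 KO values lay inside the WT range, and WT replicate 1 was well below the other WT libraries. The log2 fold change was −0.10 with an interval of −0.59 to 0.39 (limma, adjusted p 0.848), which leaves changes of either direction within it. Bax shares exon sequence with Gm45808, so part of its reads cannot be assigned with certainty. From the spacing of low values, the Bax estimates rest on about 193 to 372 reads per library and those of Bak1 on about 668 to 1401.

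Bmf (gene ID 171543, chr2:118528757-118549686), the BH3-only gene that passed, encodes a protein that is held at the actin cytoskeleton and released when cells detach or are stressed. It measured 3.99, 3.28 and 3.83 FPKM in the WT libraries against 7.19, 6.17 and 9.14 in the KO libraries. Every KO library exceeded every WT library, and WT replicate 2 and KO replicate 2 were the lowest of their groups. On the log2 scale this was a rise of 0.84, SE 0.17 (limma, adjusted p 0.0427; exact permutation p 0.1, the smallest possible). By p-value Bmf ranked 247th of the 13331 tested genes, of which 295 passed. Its direction held in all 18 alternatives, from 0.71 to 1.0, with adjusted p values of 0.00239 to 0.183 (limma), and the threshold was also lost with the replicate block and with no filter.

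Bcl2l11 (gene ID 12125, chr2:128126038-128162547), which encodes BIM, an activator of BAX and BAK that also binds all pro-survival proteins, measured 1.56, 1.62 and 2.0 FPKM in the WT libraries against 2.09, 2.97 and 2.25 in the KO libraries. The groups did not overlap, though WT replicate 3 and KO replicate 1 were nearly level, and the groups did overlap under 3 of the 4 other scalings. The KO mean was 1.41-fold the WT mean and did not pass (limma, log2 fold change 0.33, interval −0.03 to 0.69, adjusted p 0.303). FOXO factors are known activators of this gene. Named here after their values were seen, Foxo4 stood at 8.63 ± 0.435 FPKM in WT and 13.6 ± 2.35 FPKM in KO (limma, adjusted p 0.0915), Foxo3 at 3.44 ± 0.346 and 6.91 ± 3.80 FPKM (adjusted p 0.229), and Foxo1 at 25.9 ± 3.74 and 28.5 ± 4.61 FPKM (adjusted p 0.743; SD, n = 3 each). None of the 3 passed.

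The other BH3-only genes showed no separation between the groups. Bad (gene ID 12015, chr19:6941861-6951905), whose protein is held inactive by phosphorylation downstream of growth factor signals, measured 17.5, 24.4 and 26.8 FPKM in the WT libraries against 20.4, 17.2 and 18.1 in the KO libraries (limma, log2 fold change −0.27, interval −0.68 to 0.13, adjusted p 0.443). The fold change of Bad was −0.45 without WT replicate 1 and −0.15 without WT replicate 3. Bid (gene ID 12122, chr6:120893119-120917062), which caspase-8 cleaves to link death receptors to mitochondria, measured 2.31, 3.17 and 3.58 FPKM in the WT libraries against 2.77, 3.50 and 2.49 in the KO libraries (limma, −0.03, interval −0.43 to 0.37, adjusted p 0.947). Bbc3 (gene ID 170770, chr7:16308398-16318334), the p53 target that encodes PUMA, measured 1.11, 2.57 and 2.30 FPKM in the WT libraries against 1.58, 2.09 and 1.81 in the KO libraries (limma, −0.05, interval −0.53 to 0.43, adjusted p 0.929). The estimated reads per library were 69 to 111 for Bid and 27 to 67 for Bbc3, the fewest among the 5 genes of the family with 1 listed transcript. Bad shares exon sequence with Gpr137 and Bid with Bcl2l13, each a gene on the opposite strand. As the strand setting is not given, part of the reads of Bad and Bid may not be assigned with certainty. Whether shared reads bear on their values was not tested.

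**Figure D3:**
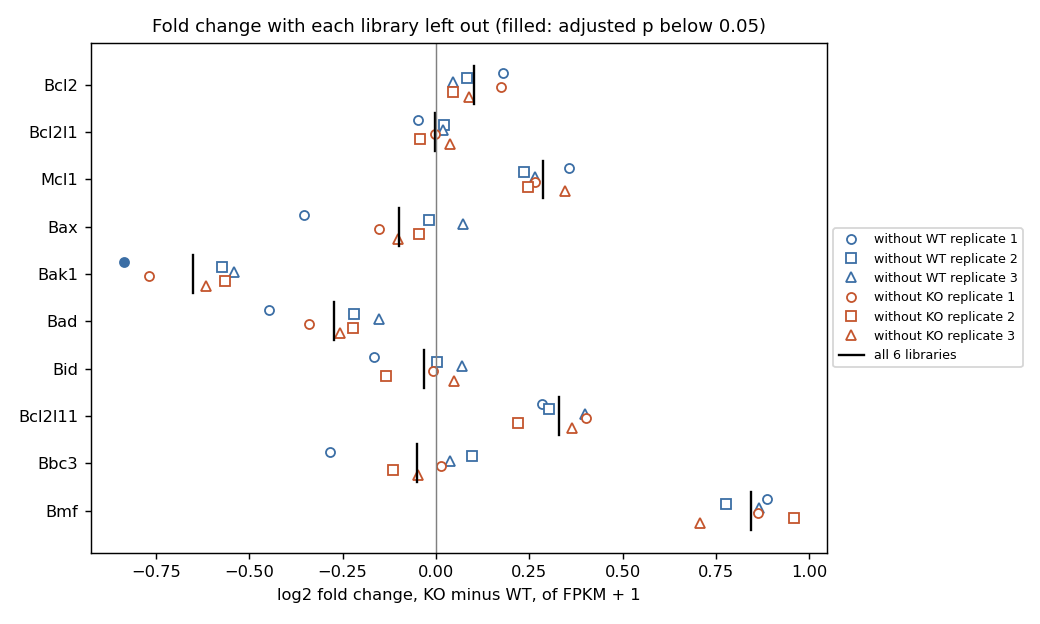
Log2 fold change of FPKM + 1, KO minus WT (x axis), of each gene (y axis) in fits that each left out 1 library (points) and with all 6 libraries (black line). Bmf runs from 0.71 to 0.96 and Bak1 from −0.84 to −0.54, while Bcl2l1, Bax, Bid and Bbc3 change sign.

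WT replicate 1 was the lowest WT library for 7 of the 10 genes (Bcl2l1, Bax, Bak1, Bad, Bid, Bcl2l11 and Bbc3), whereas each KO library was the lowest of its group for 3 or 4 genes. The share of all tested genes with WT replicate 1 lowest was not computed, so these counts describe the libraries and not the family. WT replicate 1 also had the lowest FPKM sum, 486449 against 518994 and 556968 in WT replicates 2 and 3. Whether that bears on the counts was not tested. Without WT replicate 1 the groups did not overlap in 7 of the 10 genes, with Bax, Bak1, Bad and Bbc3 lower and Mcl1, Bcl2l11 and Bmf higher in KO, against 44.7% of all tested genes in the same 5 libraries (22.8% higher, 21.8% lower). Without WT replicate 1 Bak1 alone of the 10 passed (limma, log2 fold change −0.84, adjusted p 0.0439), against 2.78% of all tested genes, and Bmf missed at an adjusted p of 0.0546 (limma, log2 fold change 0.89). The fold change of Bax was −0.35 without WT replicate 1 and 0.07 without WT replicate 3, so its sign rested on single WT libraries.

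Because FPKM are per length, a death gene can be set against a survival gene within each library. Bak1 to Mcl1 was the one of 6 such ratios in which the groups did not overlap: it was 0.398, 0.684 and 0.688 in WT and 0.339, 0.245 and 0.304 in KO. The KO mean of that ratio was 50.2% of the WT mean (exact two-sided permutation test, p 0.1, the smallest possible; 0.48 adjusted over the 6 ratios). All KO values of Bak1 were below its WT values, and all KO values of Mcl1 were above its WT values. This ratio therefore had to separate the groups. Its exact permutation p of 0.1 was fixed by that and adds nothing beyond the values of Bak1 and Mcl1. Bax to Bcl2, the ratio most often quoted for this family, was 9.73, 19.8 and 24.7 in WT and 17.7, 11.3 and 13.5 in KO (exact permutation p 0.5). The KO libraries lay inside the WT range. Bax to Mcl1 averaged 0.408 ± 0.145 in WT and 0.297 ± 0.0342 in KO, Bbc3 to Mcl1 0.0329 ± 0.0148 and 0.0241 ± 0.00331, and Bad to Bcl2l1 0.882 ± 0.145 and 0.722 ± 0.0831. Bcl2l11 to Bcl2 averaged 1.23 ± 0.346 in WT and 1.5 ± 0.14 in KO (SD, n = 3 each throughout). None of these 4 separated the groups (exact permutation p of 0.3 to 0.4). Without WT replicate 1 the KO minus WT difference went from −3.93 to −8.10 for Bax to Bcl2, from −0.111 to −0.194 for Bax to Mcl1, from −0.00884 to −0.0172 for Bbc3 to Mcl1 and from 0.267 to 0.107 for Bcl2l11 to Bcl2. It went from −0.160 to −0.239 for Bad to Bcl2l1 and from −0.294 to −0.390 for Bak1 to Mcl1.

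**Figure D4:**
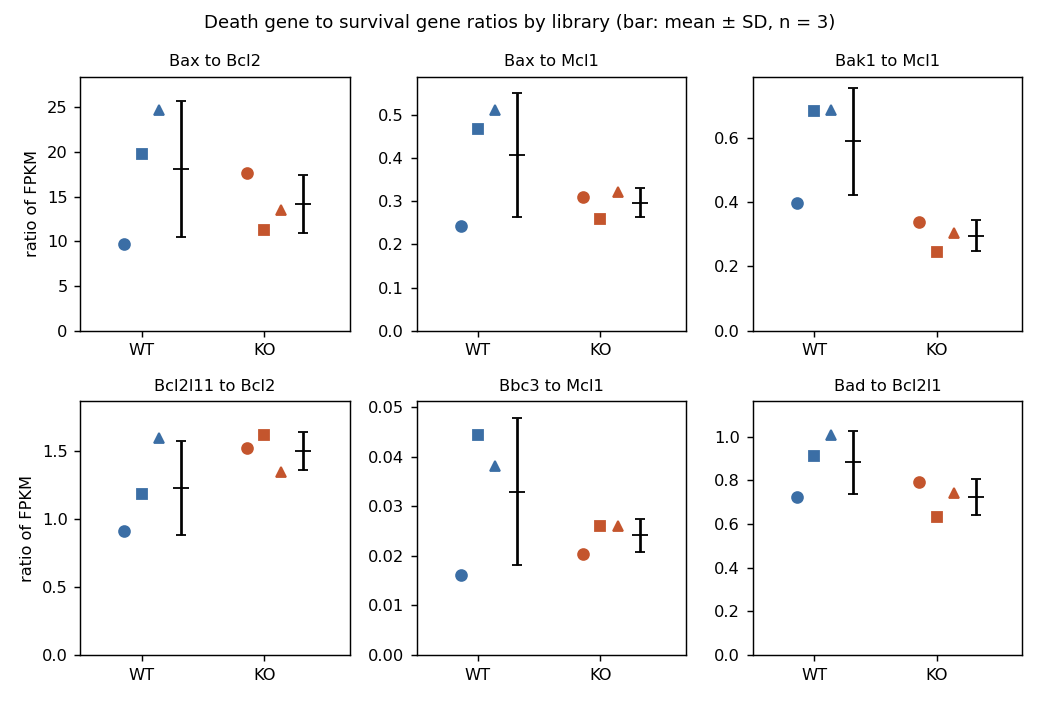
Ratio of the FPKM of a death gene to that of a survival gene (y axis, from 0) in each of the 3 WT and 3 KO libraries (circle, square, triangle for replicates 1, 2, 3), with mean and SD. Bak1 to Mcl1 is between 0.245 and 0.339 in the KO libraries and between 0.398 and 0.688 in WT, and in the other 5 ratios the groups overlap.

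Around the 10 genes, 6 further lists of apoptosis genes were examined in the same fit. Of the other BCL2 relatives 8 of 16 could be tested, and 0 were called, with 4 at an unadjusted p below 0.05, all higher in KO, against 2.21% called and 10.6% higher at that unadjusted p over all tested genes. The 2 with the smallest p were Bnip3 (390 ± 119 FPKM in WT, 837 ± 223 FPKM in KO; limma, log2 fold change 1.12, adjusted p 0.0643) and Bnip3l (49.8 ± 3.34 and 78.4 ± 14.5 FPKM; 0.63, adjusted p 0.0794), which encode mitophagy receptors with a BH3-like segment. Of 16 caspase and apoptosome genes tested, 1 rose and 0 fell, against 1.21% and 1.01% of all tested genes. At an unadjusted p below 0.05 in limma, 4 were higher and 1 lower, against 10.6% and 8.6% of all tested genes. The gene that rose was Casp4, which encodes the inflammatory caspase-11 rather than an executioner: it measured 1.63, 2.06 and 2.23 FPKM in the WT libraries against 4.62, 4.23 and 7.39 in the KO libraries (limma, log2 fold change 1.08, adjusted p 0.0391). The median of this list was 0.16. Of 11 genes for inhibitor of apoptosis (IAP) proteins and their antagonists, 0 were called, against 2.21% of all tested genes. In this list 3 had an unadjusted p below 0.05 in limma (2 higher, 1 lower), against 19.2% of all tested genes. Those with the smallest p were Birc3 (3.92 ± 0.359 FPKM in WT, 6.31 ± 0.537 FPKM in KO; limma, 0.57, adjusted p 0.0772) and Birc2 (9.95 ± 1.88 and 14.1 ± 0.579 FPKM; 0.48, adjusted p 0.163), which encode cIAP2 and cIAP1.

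Among 15 death receptor pathway genes 1 rose and 0 fell, against 1.21% and 1.01% of all tested genes. Fas, the receptor that starts the extrinsic route to caspase-8, measured 6.84, 10.3 and 8.41 FPKM in the WT libraries against 26.9, 18.2 and 32.2 in the KO libraries. Each KO library was above each WT library, and the KO mean was 3.03-fold the WT mean (limma, log2 fold change 1.47, SE 0.23, adjusted p 0.0223). Fas lost the threshold in 5 of 18 alternatives. In the list of p53 and its targets, 2 of 19 tested genes rose and 1 fell, with a median of 0.02, against 1.21% and 1.01% of all tested genes. Sesn1, a sestrin of the nutrient and oxidant response, rose from 9.73 ± 1.22 to 22.4 ± 6.63 FPKM (limma, 1.09, adjusted p 0.0391). Trp53inp1, which encodes an autophagy and stress protein, measured 5.48, 6.54 and 3.44 FPKM in the WT libraries against 29.6, 22.8 and 153 in the KO libraries (limma, 3.01, adjusted p 0.0423). KO replicate 3 was far above the other KO libraries, and its omission gave a log2 fold change of 2.17 (limma, adjusted p 0.0113). Phlda3, a p53-induced inhibitor of AKT, fell from 41.3 ± 8.69 to 10.9 ± 6.12 FPKM (limma, −1.97, adjusted p 0.0423). Of 31 regulators of the family's transcription and turnover, against 1.21% and 1.01% of all tested genes, 0 rose and 2 fell. These were Stat5a (15.3 ± 2.58 to 6.32 ± 2.54 FPKM; limma, −1.20, adjusted p 0.0475), which encodes a cytokine-activated transcription factor, and E2f1 (4.90 ± 0.566 to 2.52 ± 0.293 FPKM; −0.74, adjusted p 0.0435), which encodes a regulator of S-phase entry. Casp4, Sesn1, Trp53inp1, Phlda3, Stat5a and E2f1 each lost the threshold in 7 to 10 of 17 or 18 alternatives. The medians of the IAP list and of the regulators were −0.09 and 0.08, and those of the other BCL2 relatives and the death receptor list were 0.30 and 0.15. At an unadjusted p below 0.05 in limma, 4 genes of the death receptor list were higher in KO and 1 lower. The p53 list held 2 higher and 4 lower at that p, and the regulators 4 and 5. Shares over all tested genes were 10.6% higher and 8.6% lower.

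**Figure D5:**
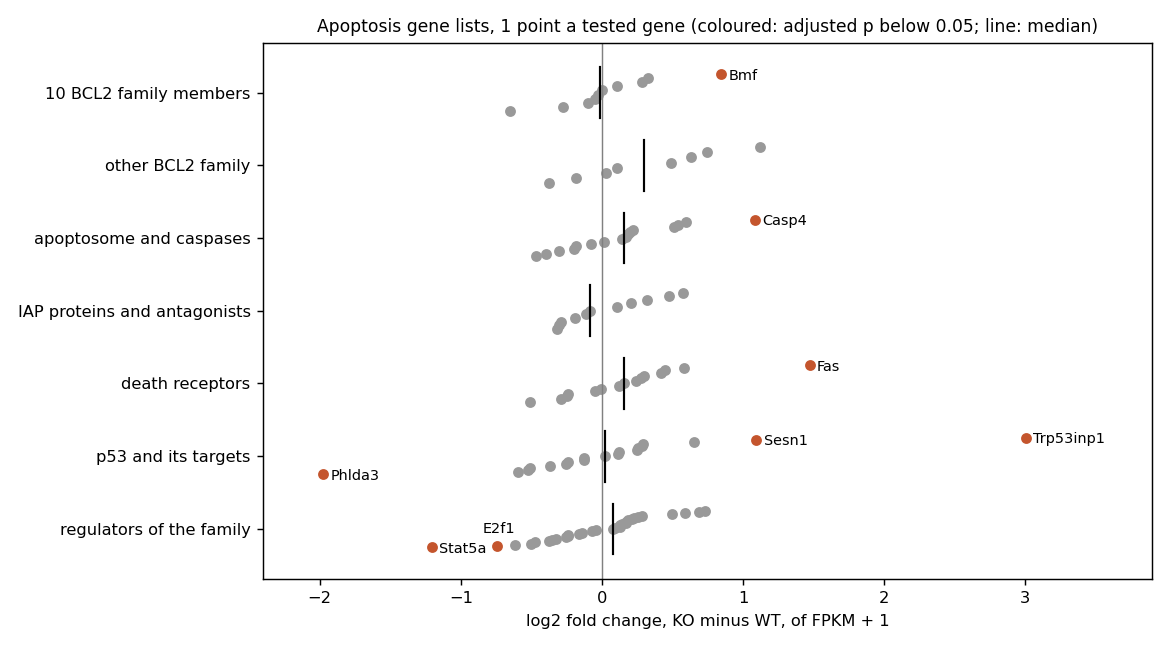
Log2 fold change of FPKM + 1, KO minus WT (x axis), of each tested gene in the 10 BCL2 family genes and in 6 further apoptosis lists (y axis), with the median of each list as a black line. Coloured points passed an adjusted p of 0.05 in limma, and they range from Phlda3 at −1.97 to Trp53inp1 at 3.01.

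Of 8373 other genes averaging 5 FPKM or more, those whose log2 levels followed Bmf most closely over the 6 libraries were Atp9b (Pearson r 0.997), 4931406P16Rik (0.994) and Ahcyl1 (0.992). With 6 libraries in 2 groups such values describe these libraries only, and 107 of the genes had an r above 0.95. Atp9b stood at 13.2 to 14.2 FPKM in WT and at 16.1 to 17.9 FPKM in KO, and Ahcyl1 at 131 to 141 and 174 to 215 FPKM. The gene 4931406P16Rik stood at 27.7 to 40.8 FPKM in WT and at 71.5 to 128 FPKM in KO.

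The defining markers of brown fat were abundant in each library, with Cidea at 1299 to 1988 FPKM. Ucp1, the uncoupling protein of brown fat, measured 4366, 6124 and 6255 FPKM in the WT libraries against 2902, 1695 and 3592 in the KO libraries, so every KO value was below every WT value and the KO mean was 48.9% of the WT mean without passing (limma, adjusted p 0.0804). Plin1, which encodes the lipid droplet coat protein perilipin, fell to 37.9% of its WT mean (limma, adjusted p 0.0267). Of the 7 brown fat markers, 4 had log2 fold changes above 0 and 3 below 0, with a median of 0.13. The list thus showed no common direction. The part of the brown fat markers in the differences of the BCL2 family genes was not tested. All 7 macrophage markers had higher means in KO, with summed levels of 114 to 167 FPKM in KO and 87.7 to 134 FPKM in WT. Their part in the values of Bmf, Casp4 and Fas was not tested. Summed muscle markers were 245 FPKM in KO replicate 1 and 1028 to 1493 FPKM in the other libraries, and summed erythroid markers were 11013 FPKM in WT replicate 3 and 2346 to 3895 FPKM in the others. Summed levels in WT and KO were 2.74 to 3.04 and 3.53 to 5.26 FPKM for lymphoid markers, 197 to 264 and 250 to 446 FPKM for neutrophil and mast cell markers, 459 to 602 and 466 to 520 FPKM for endothelial markers, and 766 to 1014 and 788 to 1393 FPKM for fibroblast markers. Summed white fat markers were 72.6 to 204 FPKM in WT and 142 to 170 FPKM in KO, and brown fat markers 20979 to 26468 and 20147 to 22012 FPKM. Most of these sums came from Retn and Fabp4. Among the white fat markers Lep, the leptin gene, fell from 1.37 ± 0.737 to 0.1 ± 0.0361 FPKM (limma, adjusted p 0.0423). The other 2 white fat markers had log2 fold changes above 0 and were not called.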

How the data were processed

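The authors' deposited table gives FPKM per gene for 6 libraries, with no counts. The submitters' processing notes name HISAT2 2.0.4, Bowtie2 2.2.5, DESeq2 and mm10, and the counter, annotation version and strand setting are not given in the sources used here. Values were tested as log2(FPKM + 1) with limma 3.58.1 (trended eBayes, KO against WT, 3 libraries each, Benjamini-Hochberg threshold 0.05) over the 13331 genes that averaged 0.5 FPKM or more. A fold change on this scale understates the change of low genes. Ratios and single genes were also compared by two-sided exact permutation, whose smallest p is 0.1. Depth, estimated from the spacing of low FPKM values, was 13400000 to 14750000 reads per library. On simulated data with 200 changed genes among 13331, 173 were recovered at a log2 change of 1.5, 116 at 1 and 0 at 0.5. Changed genes were drawn from those with a mean log2(FPKM + 1) above 2, which leaves out Bcl2, Bid, Bcl2l11 and Bbc3. Spreads were shuffled among genes, so the simulation sets no detection limit for single members. The members and lists were chosen with earlier results of these data known. Named genes were the 10 members and, per list, up to 4 past the threshold or else the 2 with the smallest p, with Fstl1, Ucp1 and the 3 genes most like Bmf. Foxo1, Foxo3, Foxo4, Ggnbp1 and the sex-linked genes fall outside this rule and were named after their values were seen, and marker lists are given by sums with their defining and called genes. Alternatives covered pseudocount, filter, scaling, eBayes settings, array weights, a replicate block and leaving out each library.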

Additional observations from a re-analysis of the deposited data

How the results depend on the processing

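The cause of the changes below was not tested. Over all genes 295 were called (134 lower, 161 higher), against 35 with no filter, 191 after scaling to a common FPKM sum, 3181 with array weights and 31 to 370 on leaving out 1 library. Of the 10 members 1 was called, against 3 with array weights (Bmf and Mcl1 higher, Bak1 lower) and 0 to 1 on leaving out 1 library, where the 1 was Bak1 (without WT replicate 1). It was 0 with no filter and with quantile, median-of-ratios, trimmed mean of M-values and common-sum scaling, where 2 or 3 members had an unadjusted p below 0.05 in limma. Their groups did not overlap in 4 to 7 members on leaving out 1 library, with 7 without WT replicate 1, and in 3 under each of the 4 other scalings (4 as deposited). Shares over all tested genes were 24.9% as deposited and 44.7% without WT replicate 1, and those of the other settings were not computed. At the unadjusted p the share was 19.2% in the main fit, and it was not computed for the other settings. These counts are therefore not read as results about the members. The labels do not say whether replicate numbers pair the libraries. Same-numbered deviations correlated weakly (0.0433 to 0.0681), which cannot settle it without different-numbered ones beside them. A replicate block called 167 genes and 0 members, with 2 members at an unadjusted p below 0.05 in limma. The fold change of Bcl2l1 (log2) was 0.0039 after quantile normalization and 0.0251 at a common sum. On leaving out 1 library it ran from −0.0482 to 0.0371, that of Bax from −0.354 to 0.0725, that of Bid from −0.165 to 0.0691 and that of Bbc3 from −0.284 to 0.0953. In the simulated data 0 of 200 changes of 0.5 on the log2 scale were recovered, which sets no detection limit for single members.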
